A study of Homo sapiens with 12 samples.

Results

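A set of 9 long noncoding genes that carry small nucleolar RNAs (snoRNAs) in their introns, GAS5, SNHG1, SNHG5, SNHG6, SNHG8, SNHG12, SNHG15, SNHG16 and ZFAS1, was followed across 12 RNA-seq libraries of Caco-2 cells, a human colon adenocarcinoma line. The members were taken by gene name, and all 9 were found among the 54553 genes of the deposited tables. All 9 were also among the 18047 genes that passed the filter on low counts. Wild-type cells were held for 48 h in a nutrient-rich or a nutrient-depleted medium, with vehicle or with 100 nM bafilomycin A1, an inhibitor of the proton pump that acidifies lysosomes. Each of the 4 groups had 3 libraries. The rich medium, as the growth protocol gives it, was EMEM with 1 g/L glucose, 2 mM glutamine and 20% serum. The depleted medium was DMEM with 0.1 g/L glucose, 0.2 mM glutamine and 1% serum, so the 2 media also differed in their base, and both held pyruvate and non-essential amino acids. Whether replicates came from separate cultures is not said, and p-values then cover only the spread seen among the libraries, which may be technical. In bulk RNA a change in the cells that carry a transcript and a change in RNA per cell cannot be told apart.

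snoRNAs are short guide RNAs for the chemical modification of ribosomal RNA, and most in human cells are cut from introns. The spliced host RNA that remains often holds only short reading frames. It can be loaded on ribosomes and then removed by nonsense-mediated decay, so its level is known to rise when translation is slowed or the decay factor UPF1 is lost. Many host genes start, like messengers of ribosomal proteins, with a 5′ terminal oligopyrimidine (TOP) tract, a C followed by a run of C and T, through which mTORC1 and LARP1 control translation. GAS5 takes its name from growth arrest, the state in which its RNA was first seen to build up.

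The tract that gives the set its name was looked for in the annotated transcripts, and it is shown here because it is what these genes are said to share. A TOP start was taken as a C at the first base followed by at least 4 more C or T. In GENCODE release 29 (GRCh38), 8 of the 9 genes had at least 1 transcript with such a start, and SNHG15 had none among 10 transcripts. Of all 132 transcripts of the 9 genes, 23 or 17.4% began this way, beside 2.49% of 29566 long noncoding transcripts. Genes with many annotated transcripts have more chances of a match: 3.99% of 16066 long noncoding genes had any TOP start, and 20.8% of the 867 with at least 5 transcripts. The count was 6 of 29 transcripts in GAS5, 1 of 25 in SNHG1, 3 of 23 in SNHG5 and 3 of 5 in SNHG6. It was 1 of 5 in SNHG8, 4 of 17 in SNHG12, 2 of 8 in SNHG16 and 3 of 10 in ZFAS1. For 7 genes the first 30 bases of 1 such transcript, all within its first exon, are given 5′ to 3′ with the opening pyrimidine run in capitals. Each was picked from the transcripts that already matched, so its opening run follows from that choice. It need not be the main start of its gene.
GAS5: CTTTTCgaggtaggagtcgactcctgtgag
SNHG1: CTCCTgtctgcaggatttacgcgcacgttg
SNHG5: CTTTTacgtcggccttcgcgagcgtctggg
SNHG8: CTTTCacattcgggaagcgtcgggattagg
SNHG12: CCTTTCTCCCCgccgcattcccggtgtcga
SNHG16: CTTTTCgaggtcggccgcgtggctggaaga
ZFAS1: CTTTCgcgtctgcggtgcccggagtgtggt
The runs were 5 bases long in SNHG1, SNHG5, SNHG8 and ZFAS1, 6 in GAS5 and SNHG16 and 11 in SNHG12. GAS5 and SNHG16 shared their first 11 bases, and SNHG5 shared its first 5 with both. These sequences lie at chr1:173867960-173867989 on the minus strand for GAS5, chr11:62855450-62855479 (minus) for SNHG1 and chr6:85678704-85678733 (minus) for SNHG5. Those of SNHG8, SNHG12, SNHG16 and ZFAS1 lie at chr4:118278758-118278787 (plus), chr1:28581844-28581873 (minus), chr17:76557769-76557798 (plus) and chr20:49278642-49278671 (plus).

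The annotated starts did not all coincide with the tract. The GENCODE start shown above was compared with the RefSeq start (GRCh38.p14) of the promoter table. It was that start in SNHG5, SNHG12 and ZFAS1, and lay 5 bases downstream of it in SNHG16 and 4 upstream in SNHG8. In GAS5 and SNHG1 it lay 1056 and 406 bases downstream. The RefSeq gene bounds reach further upstream in SNHG12 (to 28582983) and ZFAS1 (to 49278178), so these distances depend on which RefSeq start is taken. The RefSeq promoter table held 7 of the 9 genes. From 15 bases before to 20 after the RefSeq start, the longest unbroken run of C and T on the gene's strand was 12 bases in SNHG12, 8 in SNHG16, 7 in SNHG1 and ZFAS1, 6 in SNHG5 and SNHG8 and 4 in GAS5. Runs of at least 5 were in 6 of the 7, beside 54.3% of all 35116 promoters, and runs of at least 7 in 4 of the 7, beside 22.7%.

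All 9 genes are long noncoding in RefSeq, and 35 annotated snoRNAs lie within their bounds. GAS5 (chr1:173863901-173869045) holds 11 and SNHG1 (chr11:62851978-62855885) 9. SNHG12 (chr1:28578538-28582983) holds 4, and SNHG16 (chr17:76557764-76565348) and ZFAS1 (chr20:49278178-49289260) hold 3 each. SNHG5 (chr6:85677007-85678733) holds the 2 SNORD50 genes. SNHG6 (chr8:66921690-66925541), SNHG8 (chr4:118278762-118279823) and SNHG15 (chr7:44983023-44986696) hold 1 each, namely SNORD87, SNORA24 and SNORA9. GAS5 overlaps GAS5-AS1 and ZBTB37, SNHG6 overlaps MCMDC2 and SNHG12 overlaps TRNAU1AP. The kit marks strand, but how strand was treated in counting is not stated, and reads of these 3 genes are uncertain where the genes overlap.

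The libraries held 12969814 to 51649213 estimated reads, the shallowest being rich vehicle replicate 1, and the other 11 held at least 33859998. Ribosomal RNA took 1.36% to 9.10% of reads. Of 10 colon epithelial markers 8 stood at 1 TPM (a level per length) or more in all 12 libraries, while KRT20 stayed below 1 and LGALS4 ranged from 0.172 to 2.57. The summed level of the 10 markers was 4758 to 7741 TPM in rich vehicle, 2951 to 4351 in rich medium with bafilomycin A1, 2546 to 2700 in depleted vehicle and 1365 to 2091 in depleted medium with bafilomycin A1, and its part in the results was not tested. Of 5 leukocyte markers 3 stayed under 1 TPM, with PTPRC at or below 0.08, while LYZ reached 7.21 and CD68 3.94. Of 4 endothelial markers KDR stayed at or below 0.005 and PECAM1 reached 4.99, and of 5 fibroblast markers COL1A1 stood at 3.32 to 9.08 and PDGFRB reached 4.13. The summed levels were 2.87 to 11.3 TPM for leukocyte, 0.57 to 6.46 for endothelial and 4.09 to 12.9 for fibroblast markers, each highest in a rich vehicle library. Bafilomycin A1 replicate 3 of the rich medium was as like the depleted vehicle libraries as its own group. Over all tested genes its rank correlation was 0.985 with each of the other libraries of its group and 0.985 to 0.990 with the depleted vehicle libraries. The files do not settle whether it is a true replicate of its label, so each result for bafilomycin A1 in rich medium is open to that doubt.

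Read counts are given as CPM, scaled to TMM library sizes. GAS5 stood at 38.2, 27.8 and 60.4 CPM in rich vehicle, 91.0, 82.6 and 208 in rich medium with bafilomycin A1, 248, 200.3 and 276 in depleted vehicle and 211, 189 and 304 in depleted medium with bafilomycin A1, each in the order of replicates 1 to 3. ZFAS1, whose gene starts next to that of the helicase-like protein ZNFX1, stood at 57.6, 51.8 and 116 CPM, then 160, 146 and 318, then 445, 339 and 441, and then 487, 439.98 and 557, in the same order of groups. SNHG5, the U50 host gene, stood at 2.46, 3.90 and 8.04 CPM, then 9.82, 11.4 and 31.4, then 37.0, 27.5 and 44.7, and then 37.4, 34.7 and 68.6. In all 3 genes every vehicle library in rich medium lay below every library of the other groups, and the 2 depleted groups overlapped.

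SNHG1, also known as the U22 host gene after SNORD22, stood at 63.0, 85.5 and 100.4 CPM in rich vehicle, 84.4, 81.4 and 333 in rich medium with bafilomycin A1, 417, 309.99 and 485 in depleted vehicle and 376, 360.3 and 596 in depleted medium with bafilomycin A1. SNHG8, host of SNORA24, stood at 20.5, 17.3 and 36.6 CPM, then 31.6, 26.1 and 85.1, then 96.6, 77.9 and 124, and then 98.2, 99.9 and 164. SNHG12, whose introns hold mainly H/ACA snoRNAs, stood at 4.17, 11.5 and 10.1 CPM, then 7.66, 5.86 and 14.9, then 18.3, 15.1 and 20.7, and then 19.3, 20.2 and 29.5. In these genes the groups in rich medium overlapped, and the step lay between rich and depleted medium, with bafilomycin A1 replicate 3 of the rich medium near the depleted libraries.

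SNHG6, host of SNORD87, stood at 2.83, 3.18 and 6.65 CPM in rich vehicle, 7.43, 5.55 and 9.53 in rich medium with bafilomycin A1, 10.02, 11.2 and 9.44 in depleted vehicle and 7.53, 8.99 and 10.2 in depleted medium with bafilomycin A1. SNHG16, host of the SNORD1 genes, stood at 305, 186 and 326 CPM, then 364, 373 and 409, then 381, 300.3 and 445, and then 426, 332 and 521. SNHG15, host of SNORA9, stood at 7.22, 11.4 and 21.2 CPM, then 8.94, 6.99 and 10.1, then 6.50, 9.66 and 10.1, and then 13.5, 10.6 and 11.4. SNHG6 had its lowest values in rich vehicle, SNHG16 ranged over less than 3 times in all 12 libraries, and SNHG15 had its highest value and 1 of its 3 lowest within the rich vehicle group. The 9 genes together took 0.0364% to 0.0631% of reads in rich vehicle, 0.0698% to 0.143% with bafilomycin A1 in rich medium, 0.127% to 0.190% in depleted vehicle and 0.159% to 0.224% with both treatments.

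**Figure D1:**
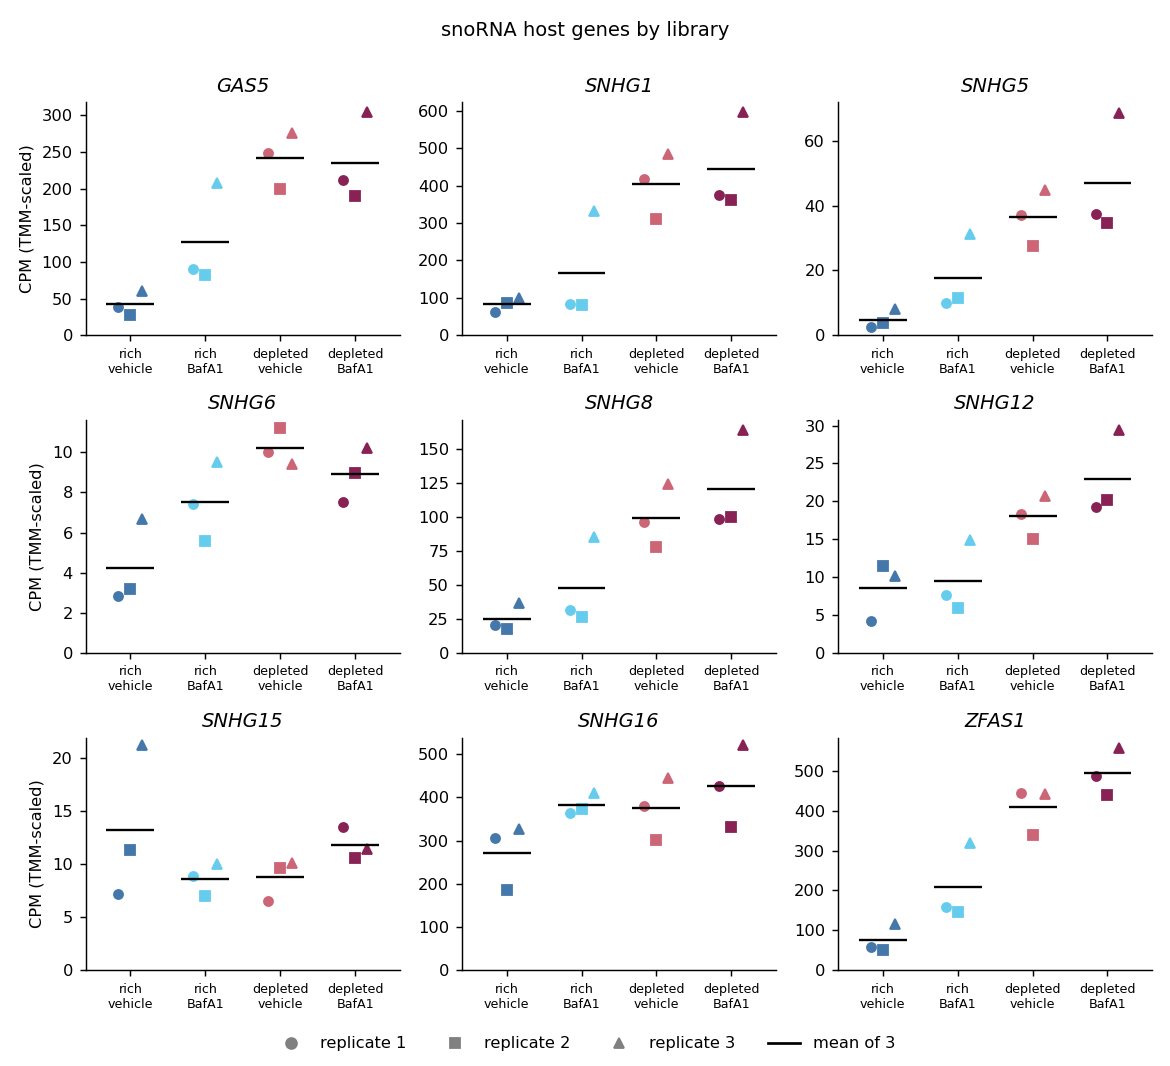
CPM (TMM-scaled, linear axis from 0) of each gene in the 12 libraries by group, with the replicate number as the marker shape and the mean of 3 as a bar. GAS5, SNHG1, SNHG5, SNHG6, SNHG8, SNHG12 and ZFAS1 are higher in every depleted library than in any rich vehicle library. The triangle for bafilomycin A1 replicate 3 of the rich medium is the highest of its group in all 9 panels.

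Nutrient depletion under vehicle was followed by a rise of 7 of the 9 host genes and a fall of none. SNHG5 rose 7.34-fold, GAS5 5.72-fold, ZFAS1 5.43-fold, SNHG1 4.86-fold and SNHG8 4.0-fold. SNHG6 and SNHG12 rose by less, 2.38-fold and 2.06-fold. For SNHG16 the log2 fold change was 0.46 (SE 0.23) and for SNHG15 it was -0.61 (SE 0.31), and neither passed the test. Calls were made at an adjusted p under 0.05 in edgeR's quasi-likelihood test with Benjamini-Hochberg adjustment over 18047 genes, in 1 fit of all 12 libraries. By this rule 15.5% of all genes were called higher and 15.4% lower, and the median log2 fold change was 2.00 over the 9 host genes and 0.04 over all genes. The members were chosen with earlier results of these data known. Here and in the other comparisons such medians therefore describe the set and do not test it. The log2 fold changes were 2.88 (SE 0.51, adjusted p = 0.00125) for SNHG5, 2.52 (SE 0.36, adjusted p = 0.000175) for GAS5, 2.44 (SE 0.33, adjusted p = 0.000103) for ZFAS1, 2.28 (SE 0.48, adjusted p = 0.00357) for SNHG1 and 2.00 (SE 0.44, adjusted p = 0.00439) for SNHG8. They were 1.25 (SE 0.30, adjusted p = 0.00584) for SNHG6 and 1.05 (SE 0.36, adjusted p = 0.0366) for SNHG12. The same 7 genes had no overlap between the groups in CPM, a state that 23% of all genes reached in this direction and 18.2% in the other, where no host gene was. GAS5, SNHG1, SNHG5, SNHG6, SNHG8 and ZFAS1 were called in all 21 alternative fits. SNHG12 lost its call without rich vehicle replicate 1 or 3 or depleted vehicle replicate 1 or 3 (adjusted p 0.0560 to 0.113), and SNHG15 was called lower without the shallow rich vehicle replicate 1 (-0.90, adjusted p = 0.0239).

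In rich medium bafilomycin A1 was followed by a rise of 3 host genes, SNHG5 by 3.53-fold, GAS5 by 3.01-fold and ZFAS1 by 2.76-fold, and no host gene fell. Of all genes 6.15% were called higher and 4.78% lower. The log2 fold changes were 1.82 (SE 0.50, adjusted p = 0.0357) for SNHG5, 1.59 (SE 0.35, adjusted p = 0.0104) for GAS5 and 1.47 (SE 0.32, adjusted p = 0.00930) for ZFAS1 in edgeR's quasi-likelihood test. SNHG1 (1.00, 95% interval 0.00 to 2.01), SNHG8 (0.93), SNHG6 (0.80), SNHG16 (0.49), SNHG12 (0.11) and SNHG15 (-0.63) did not pass, with adjusted p from 0.100 to 0.877. The median log2 fold change was 0.93 over the 9 genes and 0.02 over all genes. GAS5, SNHG5, ZFAS1 and SNHG16 were higher than vehicle with no overlap in CPM, as were 14.9% of all genes, and none was lower, as were 11.1%.

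The size of this response rested on bafilomycin A1 replicate 3. It was the highest library of its group for 9 of the 9 host genes, by 1.10 to 3.95 times over the higher of the other 2 libraries. It lay within the depleted vehicle range for 7 of them and below it for SNHG12 and ZFAS1. For SNHG15 and SNHG16 the other 2 libraries of the group lay within that range as well. Being highest was not particular to bafilomycin A1 replicate 3 of the rich medium, since replicate 3 was also the highest for 8 of the 9 genes in rich vehicle, 7 in depleted vehicle and 8 in depleted medium with bafilomycin A1. SNHG1 was at 333 CPM there and at 84.4 and 81.4 in the other 2 libraries, against 63.0 to 100.4 in vehicle. Without this library 1 host gene was called, GAS5 (log2 fold change 1.04, adjusted p = 0.0448), while ZFAS1 was at 1.02 (adjusted p = 0.0507), SNHG5 at 1.10 (adjusted p = 0.129), SNHG8 at 0.22 and SNHG1 at -0.00055. Without it and the shallow vehicle library none was called (GAS5 0.97, adjusted p = 0.107). In CPM, replicates 1 and 2 of GAS5, SNHG5 and ZFAS1 also lay above all 3 vehicle libraries.

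**Figure D2:**
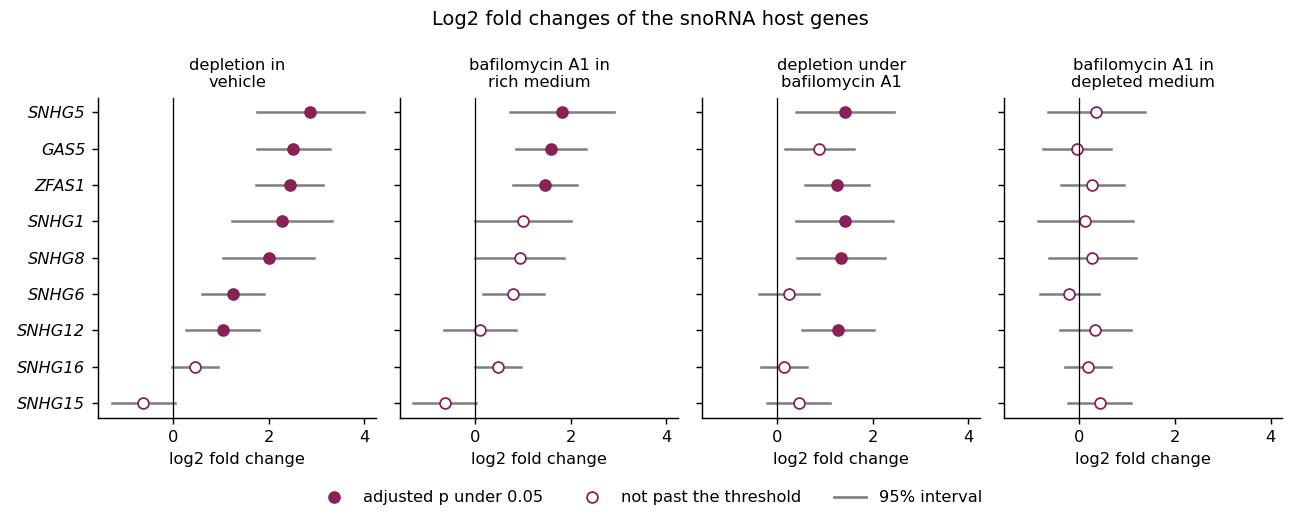
Log2 fold change of each host gene in 4 comparisons (points, filled where the adjusted p was under 0.05) with its 95% interval (bars). The genes are in the order of their change on depletion under vehicle, where 7 points are filled, against 3 for bafilomycin A1 in rich medium, 5 for depletion under bafilomycin A1 and 0 for bafilomycin A1 in depleted medium.

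When depleted medium was compared with rich medium under bafilomycin A1, 5 host genes rose and none fell. SNHG5 rose 2.68-fold, SNHG1 2.67-fold, SNHG8 2.54-fold, SNHG12 2.43-fold and ZFAS1 2.38-fold. Of all genes 10.5% were called higher and 13.6% lower. The log2 fold changes were 1.42 (SE 0.47, adjusted p = 0.0462) for SNHG5, 1.42 (SE 0.47, adjusted p = 0.0436) for SNHG1, 1.34 (SE 0.42, adjusted p = 0.0365) for SNHG8, 1.28 (SE 0.35, adjusted p = 0.0164) for SNHG12 and 1.25 (SE 0.31, adjusted p = 0.00950) for ZFAS1 in edgeR's quasi-likelihood test. GAS5 (0.89, adjusted p = 0.0713), SNHG15 (0.45), SNHG6 (0.25) and SNHG16 (0.16) did not pass. The median was 1.25 over the host genes and 0.01 over all genes, and 6 host genes were higher with no overlap in CPM, beside 23.4% of all genes (lower, 0 and 23.8%). This count moved with single libraries. No host gene was called without bafilomycin A1 replicate 1 or 2 of the rich medium, and 1 without depleted bafilomycin A1 replicate 3. It was 2 without rich vehicle replicate 2, depleted vehicle replicate 1 or depleted bafilomycin A1 replicate 2, and 3 without depleted vehicle replicate 2 or 3 or depleted bafilomycin A1 replicate 1. Without bafilomycin A1 replicate 3 of the rich medium it was 6, with SNHG1 at 2.42.

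In depleted medium no host gene passed the test for bafilomycin A1, where 5.5% of all genes were called higher and 5.91% lower. The log2 fold changes ran from -0.20 for SNHG6 to 0.44 for SNHG15, with a median of 0.28 against -0.03 over all genes. GAS5 was at -0.04 with a 95% interval of -0.76 to 0.68, ZFAS1 at 0.28 (-0.38 to 0.94), and SNHG5, the least precise, at 0.36 (-0.64 to 1.37). None had an unadjusted p under 0.05 in edgeR's test, and DESeq2 and limma called 0 as well. The upper bound of the interval was above 1.05, the change of SNHG12 on depletion under vehicle, for SNHG1, SNHG5, SNHG8, SNHG12 and SNHG15. SNHG15 alone had no overlap between the groups in CPM, higher with bafilomycin A1, as did 19.8% of all genes, and none was lower, as were 20.1%.

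The response to bafilomycin A1 was compared between the media as an interaction, the log2 fold change in depleted minus that in rich medium. No host gene passed, while 2.35% of all genes were called higher and 3.83% lower. The largest difference was that of GAS5, -1.63 (95% interval -2.66 to -0.60, adjusted p = 0.0591 in edgeR's quasi-likelihood test), followed by SNHG5 at -1.46 (adjusted p = 0.226), ZFAS1 at -1.19 (adjusted p = 0.122) and SNHG6 at -1.0 (adjusted p = 0.168). SNHG15 was at 1.07 (adjusted p = 0.162). GAS5, SNHG6, SNHG15 and ZFAS1 had an unadjusted p under 0.05, DESeq2 called 1 host gene (GAS5, -1.60, adjusted p = 0.0111), and limma called 0. Without bafilomycin A1 replicate 3 of the rich medium GAS5 was at -1.08 (adjusted p = 0.131) and SNHG1 moved from -0.87 to 0.14. The call depended on the fit: over the 20 alternatives the interaction was called in 6 for GAS5, 3 for ZFAS1, 2 for SNHG5 and SNHG15 and 1 for SNHG1 and SNHG6. With the replicate number as a block in edgeR's test, GAS5 (adjusted p = 0.00166), SNHG5 (adjusted p = 0.00977) and ZFAS1 (adjusted p = 0.0121) were called. The values therefore neither show a difference between the media for these genes nor show that there was none.

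Compared per length, in TPM, ZFAS1 was the most abundant of the 9, with a mean of 774 over the 12 libraries. GAS5 (405), SNHG1 (323), SNHG8 (227), SNHG16 (185.5) and SNHG5 (90.4) followed, and SNHG12 (25.5), SNHG15 (19.2) and SNHG6 (17.2) were lowest. In depleted medium with bafilomycin A1 ZFAS1 ranged from 1271 to 1507 TPM, GAS5 from 595 to 676, SNHG1 from 533 to 632, SNHG8 from 364 to 449, SNHG16 from 209 to 256, SNHG5 from 148 to 206 and SNHG12 from 42.9 to 46.0. In that group the ranges of GAS5 and SNHG1 overlapped, as did those of SNHG15 (18.2 to 28.4) and SNHG6 (19.8 to 24.8). The order was another one in rich vehicle, where SNHG16 (117 to 219 TPM) overlapped ZFAS1 (174 to 256), GAS5 (94.5 to 162) and SNHG1 (79.8 to 123), and SNHG5 (14.6 to 20.4) overlapped SNHG12 (9.74 to 18.6).

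**Figure D3:**
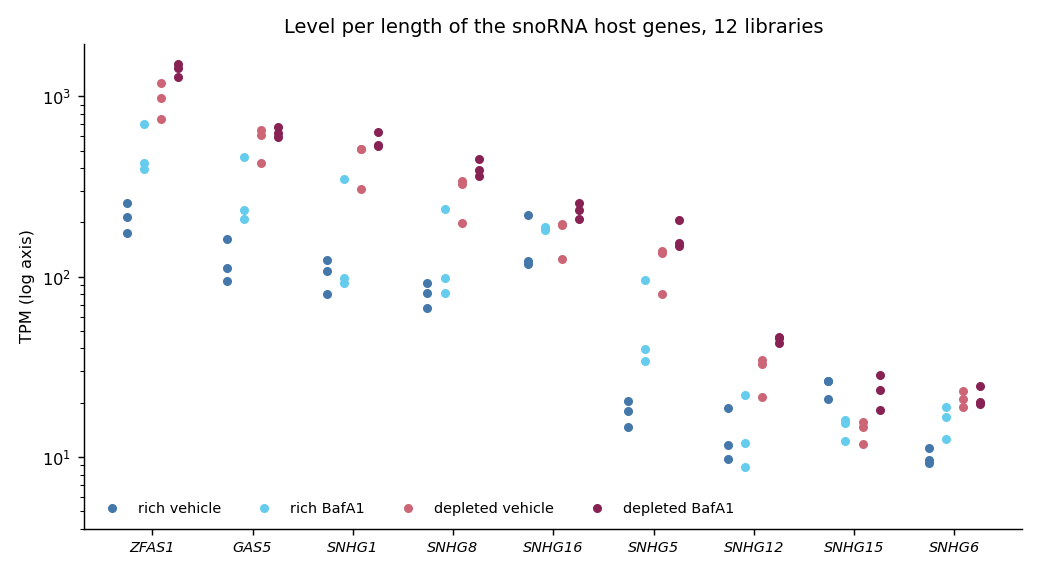
TPM of each host gene in the 12 libraries (points, log axis) by group, with the genes ordered by their mean over all libraries. ZFAS1 spans 174 to 1507 TPM, SNHG6 spans 9.31 to 24.8, and SNHG15 has its rich vehicle points above those of rich medium with bafilomycin A1 and of depleted vehicle.

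The per-length scale set SNHG15 apart from the other host genes in rich medium. It stood at 20.8, 26.3 and 26.4 TPM in rich vehicle, 16.1, 12.2 and 15.5 in rich medium with bafilomycin A1, 11.8, 14.7 and 15.7 in depleted vehicle and 28.4, 23.7 and 18.2 in depleted medium with bafilomycin A1. The vehicle libraries in rich medium were thus above both single treatments with no overlap. Such a lower level on the TPM scale was reached by 8.53% of all genes for bafilomycin A1 in rich medium and by 19.1% for depletion under vehicle. Host genes higher with no overlap in TPM numbered 4 and 7 in these comparisons, beside 6.97% and 9.84% of all genes. For bafilomycin A1 in depleted medium 7 were higher and 0 lower, beside 26.2% and 6.58%, and for depletion under bafilomycin A1 9 and 0, beside 27.1% and 11.3%. In a limma fit of log2(TPM + 1), chosen after seeing the data, SNHG15 was lower on depletion (-0.76, adjusted p = 0.0411) but not with bafilomycin A1 (-0.71, adjusted p = 0.157). On the same scale the other 7 genes called on depletion were called again, and SNHG5 (1.49, adjusted p = 0.0458) and ZFAS1 (1.20, adjusted p = 0.0434) but not GAS5 (1.23, adjusted p = 0.0526) with bafilomycin A1 in rich medium. TPM moved the median of all genes, to -0.14 on depletion under vehicle and -0.11 with bafilomycin A1 in rich medium. It moved to 0.15 with bafilomycin A1 in depleted medium, where SNHG6 (-0.20) and GAS5 (-0.04) changed sign to 0.04 and 0.19. The median gap between deposited length and effective length, which follows the length of the sequenced fragments, was 176, 188 and 198 bases in depleted medium with bafilomycin A1 and 199 to 270 in the other libraries. Its part in the TPM of these short RNAs was not tested.

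The deposited tables give each gene a length per library, a mean over its transcripts that moves with the mix to which reads were assigned. It varied for 8 of the 9 host genes and was 507 bases for SNHG5 throughout. The SNHG1 length was 1192 to 1222 bases in rich vehicle, 1133 to 1187 in rich medium with bafilomycin A1, 1128 to 1141 in depleted vehicle and 1128 to 1129 in depleted medium with bafilomycin A1. The SNHG12 length was 856 to 1067, 814 to 912, 782 to 811 and 769 to 777 bases in the same groups, the value of 856 resting on 56 reads. Both were shorter after depletion with no overlap, under vehicle and under bafilomycin A1. SNHG16 was longer on depletion under vehicle by a few bases, 2501 to 2504 against 2481 to 2498. Of 12395 tested genes with a varying length, 5.16% were shorter and 9.42% longer with no overlap on depletion under vehicle, and 6.83% and 7.75% under bafilomycin A1. SNHG1 was also shorter with bafilomycin A1 in rich medium, as were 4.37% of genes (6.87% longer), and SNHG12 with bafilomycin A1 in depleted medium, as were 6.89% (6% longer). SNHG6 was longer on depletion under bafilomycin A1, at 700 to 703 bases against 689 to 699.

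**Figure D4:**
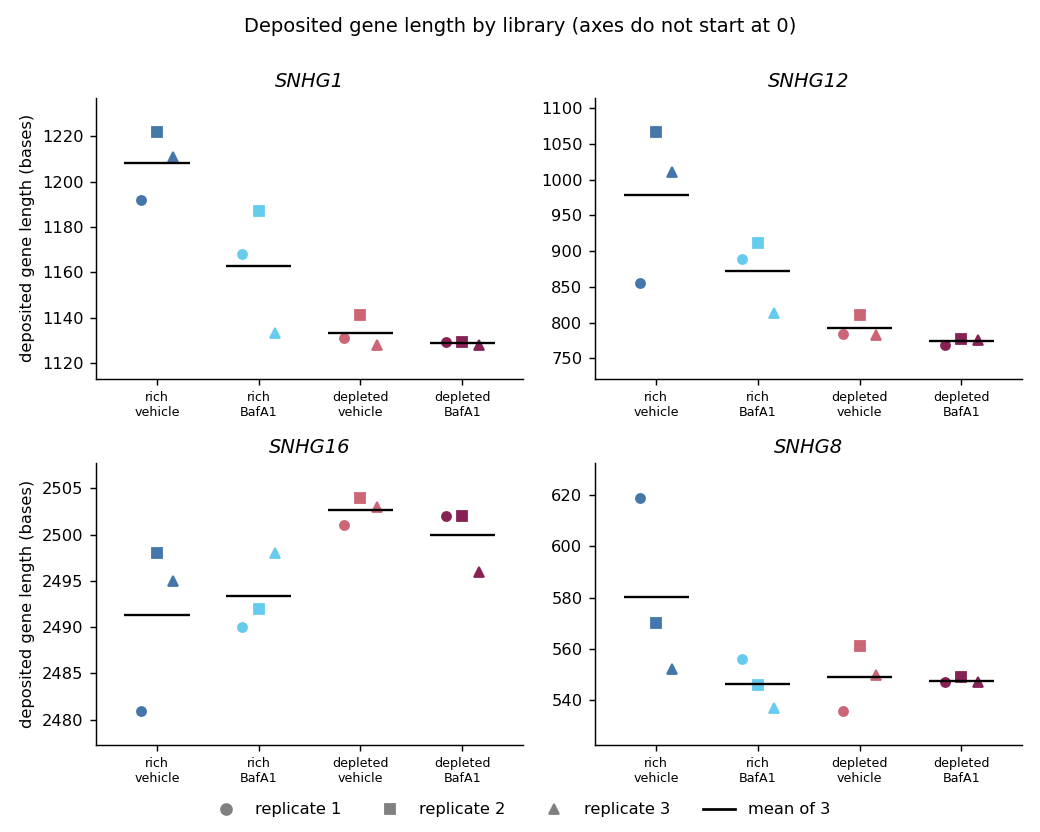
Deposited gene length in bases (axes not starting at 0) of 4 host genes in each library by group, with the replicate number as the marker shape and the mean of 3 as a bar. SNHG1 and SNHG12 fall from rich vehicle to the depleted groups, SNHG16 spans 2481 to 2504 bases, and SNHG8 has its highest value of 619 in the shallow rich vehicle replicate 1.

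The snoRNAs themselves were hardly measured. Of 33 named snoRNAs within the 9 genes, 26 had 0 reads in all 12 libraries. At the depth of these libraries 3 reads, taken as the floor for a count of 0, were 0.0581 to 0.231 CPM. The 33 together had 0 to 94 reads per library. SNORD22, within SNHG1, was the 1 that passed the filter, with 0 to 65 reads and no call in any comparison. No host level could therefore be set beside that of its snoRNAs.

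Messengers of the proteins that bind snoRNAs fell on depletion. Of 15 genes for C/D and H/ACA snoRNP proteins and their assembly factors, 14 fell and none rose on depletion under vehicle, with a median log2 fold change of -0.95. RUVBL1, an ATPase of the assembly complex, fell by 1.52 on the log2 scale (adjusted p = 2.39e-05 in edgeR's test), and NHP2, an H/ACA protein, by 1.14. With bafilomycin A1 in rich medium 7 fell and none rose (median -0.59), with RUVBL1 at -1.08 and NOP56, a core C/D protein, at -0.99. In depleted medium bafilomycin A1 was followed by a rise of 2, NOP58 (0.75) and SHQ1 (0.64), and the interaction was called higher for 9 of the 15, among them GAR1 (1.59) and NOP58 (1.46). On depletion under bafilomycin A1 2 rose and 4 fell, with NHP2 lowest at -0.92 and NAF1 highest at 0.56 among those called. Over the 21 alternative fits 11 to 14 fell on depletion under vehicle. For bafilomycin A1 in rich medium the count that fell was 3 without bafilomycin A1 replicate 3 and 1 on the TPM scale, and for the interaction the count was 2 without that library, depleted vehicle replicate 1 or depleted bafilomycin A1 replicate 3, and 0 on the TPM scale. Beside this and the next lists, 15.5% of all genes were called higher and 15.4% lower on depletion under vehicle. With bafilomycin A1 the shares were 6.15% and 4.78% in rich medium and 5.5% and 5.91% in depleted medium. On depletion under bafilomycin A1 they were 10.5% and 13.6%, and in the interaction 2.35% and 3.83%.

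Other long noncoding snoRNA hosts changed in both directions. Of 24 listed, 17 hold a RefSeq snoRNA within their bounds, 8 of the 23 found in GENCODE had a transcript with a TOP start, and 20 were tested. On depletion under vehicle 5 rose and 3 fell, beside 15.5% and 15.4% of all genes, with a median of -0.24. SNHG32 rose by 2.38 and EPB41L4A-AS1 by 2.18 on the log2 scale, while SNHG4 fell by 2.35 and SNHG30 by 1.23. TOP starts were 0 of 11 transcripts in SNHG32, 0 of 4 in EPB41L4A-AS1, 4 of 9 in SNHG4 and 0 of 2 in SNHG30. Their part in these changes was not tested. With bafilomycin A1 in rich medium 3 rose and 4 fell, SNHG32 (1.42) and EPB41L4A-AS1 (1.23) being highest and SNHG26 (-3.0, at a mean of 0.753 CPM in vehicle) and SNHG4 (-1.32) lowest. EPB41L4A-AS1 rose by 1.21 on depletion under bafilomycin A1, where 1 rose and 3 fell, and 0 were called with bafilomycin A1 in depleted medium.

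Protein-coding TOP messengers had smaller median changes than the host genes, a set chosen with earlier results of these data known. Of 20 TOP messengers for translation factors and some other proteins, 5 rose and none fell on depletion under vehicle (median 0.31). Among all genes 15.5% were called higher and 15.4% lower. EEF2, the elongation factor that moves the ribosome along, was at 1.13 and EIF3F at 0.86. With bafilomycin A1 in rich medium 2 rose, EEF2 (0.79) and EIF3F (0.67). Of 79 cytosolic ribosomal protein genes 8 rose and none fell on depletion under vehicle (median 0.37). This was a smaller share than the 15.5% of all genes called higher there. RPL13A (1.06) and RPL12 (0.96) were highest among those called. No ribosomal protein gene was called with bafilomycin A1 in rich medium (median 0.22) or on depletion under bafilomycin A1 (median -0.10). The ribosomal protein count rested on single libraries. On depletion under vehicle it was 52 without rich vehicle replicate 3, 2 and 3 without replicates 1 and 2 of that group, 3 without depleted vehicle replicate 1 and 1 without depleted vehicle replicate 3, and for bafilomycin A1 in rich medium it was 28 without rich vehicle replicate 3. The count of the 20 other TOP messengers on depletion was 10 without that library and 1 on the TPM scale. The single ribosomal protein call in depleted medium with bafilomycin A1 was RPL36A at -2.98 (adjusted p = 0.0244), on low levels of 3.6 ± 3.6 CPM in vehicle and 0.458 ± 0.233 with bafilomycin A1 (SD, n = 3, edgeR fit). HNRNPA1 fell there by 0.67 among the 20 other TOP messengers.

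Among 18 regulators of TOP translation, 2 rose and 4 fell on depletion under vehicle, beside 15.5% and 15.4% of all genes. EIF4E, the cap-binding protein, fell by 1.28 and LARP4 by 0.98, while TSC2, an inhibitor of mTORC1, rose by 0.70 and LARP1B by 0.52. With bafilomycin A1 in rich medium 2 fell, EIF4E by 0.72 and LARP4 by 0.62. With bafilomycin A1 in depleted medium 4 rose, LARP1B (0.83) and the kinase RPS6KB1 (0.74) most. On depletion under bafilomycin A1 3 rose and 1 fell, LARP1B at 1.14 and EIF4E at -0.89. LARP4 and RPS6KB1 were the 2 called higher in the interaction, beside 2.35% of all genes, and none was called lower, beside 3.83%. Over the alternative fits the depletion counts ran from 0 to 3 higher and 3 to 4 lower.

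Of 19 factors of nonsense-mediated decay 1 rose and 3 fell on depletion under vehicle, beside 15.5% and 15.4% of all genes. EIF4A3 fell by 0.80 and MAGOHB, both of the exon junction complex, by 0.59, and UPF1 was at -0.56. NBAS rose by 0.42. The part of these changes in the host RNA levels was not tested. None was called with bafilomycin A1 in either medium, and 4 rose on depletion under bafilomycin A1, XRN1 (0.78) and UPF3B (0.77) most. Of 19 protein-coding targets of this decay 3 rose and 3 fell on depletion under vehicle, beside 15.5% and 15.4% of all genes. DDIT3 (2.31) and SLC7A11 (0.96) rose most, and SRSF2 (-1.43) and TRA2A (-0.86) fell most. With bafilomycin A1 in rich medium 2 rose, CDKN1A (1.62) and DDIT3 (1.29), and 3 fell, TRA2A (-0.84) and SRSF2 (-0.79) most. ATF3 (1.58) and CDKN1A (0.97) rose with bafilomycin A1 in depleted medium. On depletion under bafilomycin A1 5 rose, ATF3 at 1.63 and DDIT3 at 1.58, and 2 fell, CDKN1A at -0.99 and SRSF2 at -0.84. Over the alternative fits 1 to 5 of these targets rose and 2 to 5 fell on depletion under vehicle. DDIT3, ATF3 and SLC7A11 are also known as genes that stress signalling switches on, and CDKN1A as a p53 target.

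**Figure D5:**
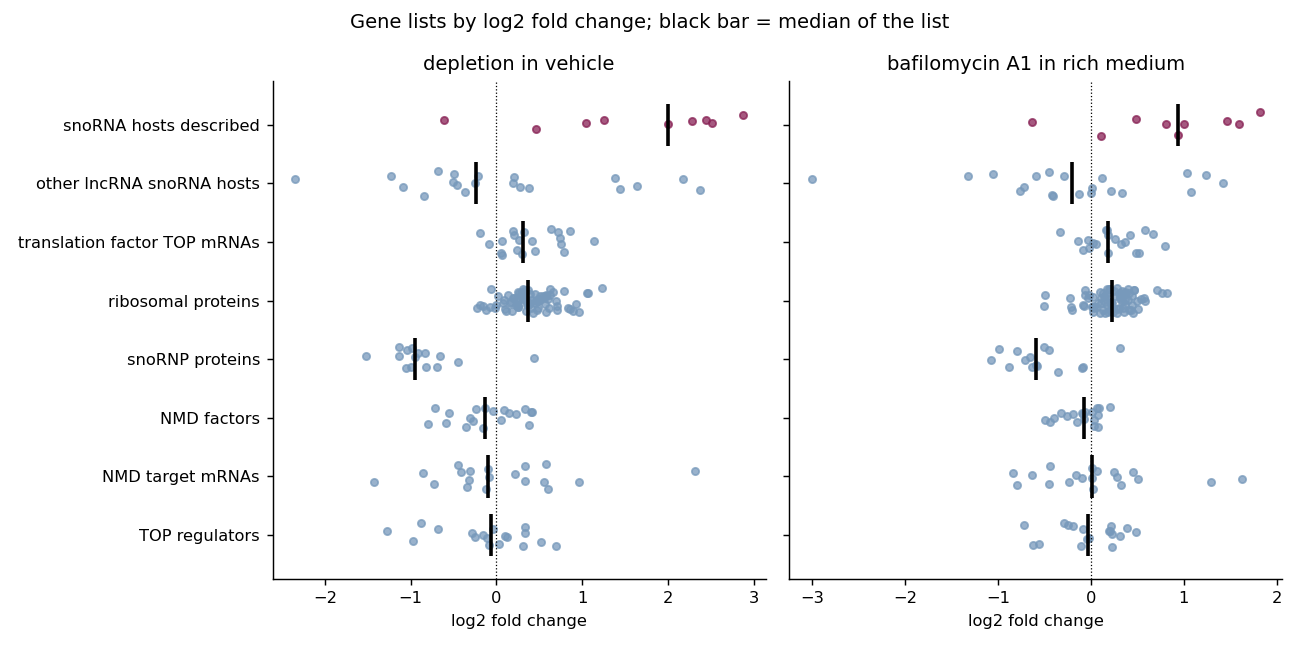
Log2 fold changes of the genes in each list (points) with the median of the list (black bar), for depletion under vehicle and for bafilomycin A1 in rich medium. The host genes described here have medians of 2.00 and 0.93, against -0.95 and -0.59 for snoRNP proteins and 0.37 and 0.22 for ribosomal proteins. The list labelled translation factor TOP mRNAs also holds messengers of some other proteins. The host genes and lists were chosen with earlier results of these data known.

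Within the set, likeness was described by Pearson's r over the 12 libraries between a gene's log2 CPM and the mean of the other 8, values that share the same libraries and groups. It was 0.98 for SNHG8 and SNHG5, 0.97 for ZFAS1, 0.96 for GAS5 and SNHG1, 0.89 for SNHG6 and 0.87 for SNHG12, and lower for SNHG16 (0.70) and SNHG15 (0.07). SNHG15 had no annotated TOP start among 10 transcripts and SNHG16 had 2 among 8. SNHG8 had 1 among 5, SNHG5 3 among 23, ZFAS1 3 among 10, GAS5 6 among 29 and SNHG1 1 among 25. SNHG6 had 3 among 5 and SNHG12 4 among 17. Whether such a start goes with likeness was not tested. Among 11346 other genes that averaged 5 CPM or more, the 5 closest to the mean of the set were DEPP1 (r = 0.983), DPH5 (0.982), RFX3 (0.980), ASS1 (0.980) and SNHG32 (0.979). ASS1, the argininosuccinate synthase of arginine synthesis, stood at 22.7 ± 11.8 CPM (SD, n = 3) in rich vehicle, 95.6 ± 64.0 with bafilomycin A1 in rich medium, 180.1 ± 45.7 in depleted vehicle and 209 ± 38.7 with both treatments. DEPP1, a gene known to be induced by FOXO factors, stood at 12.2 ± 4.70, 29.4 ± 20.5, 56.9 ± 13.7 and 56.4 ± 2.20 CPM in the same order. SNHG32, itself a snoRNA host and without a TOP start among 11 transcripts, stood at 40.6 ± 19.0, 109.5 ± 51.7, 212 ± 24.1 and 193 ± 40.7 CPM.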

How the data were processed

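Total RNA depleted of ribosomal RNA was sequenced with a stranded kit, per the labels' protocols. DRAGEN and GRCh38 are named in the submitters' processing notes, and no annotation release or strand setting is given in the sources used here. The authors deposited, per library, estimated counts per gene (5.08% of them not whole), TPM values and gene lengths in bases, and for the series a table of raw counts of 13518 genes, none under 10 reads. Estimated counts were rounded and tested with edgeR 4.0.16 in R 4.3.3 (TMM scaling, filterByExpr with a minimum count of 10 and total of 15, robust quasi-likelihood fit of 12 libraries as 4 group means, 8 residual degrees of freedom), with calls at an adjusted p under 0.05 (Benjamini-Hochberg). The code was tested on simulated data. DESeq2 1.42.0 and limma 3.58.1 (log2 of the authors' TPM plus 1, genes of the same filter, chosen after seeing the data) were alternatives, with others in the closing section. TPM and lengths were used as the authors deposited them. No 2 of the 66 pairs of libraries were identical. The smallest counts were 33 reads for SNHG5 (95% Poisson interval 22.7 to 46.3, counting error only) and 38 for SNHG6, in the shallow rich vehicle replicate 1. All 9 members were described, of other lists the 2 highest and 2 lowest calls of a comparison and UPF1, and the 5 genes closest in pattern (log2 CPM, prior count 2). The members and lists were chosen with earlier results of these data known.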

Additional observations from a re-analysis of the deposited data

Results flagged for a closer look

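No host gene passed the test of a difference between the media in its response to bafilomycin A1 in the main fit, which had no replicate block. With the replicate number as a block GAS5, SNHG5 and ZFAS1 passed. The test was the interaction in edgeR's quasi-likelihood fit (log2 fold change in depleted minus that in rich medium, adjusted p under 0.05 over all genes). Of all tested genes 2.35% were called higher and 3.83% lower. In the lists set beside the host genes 14 genes were called. Of the 15 snoRNP proteins and assembly factors these were GAR1 (1.59), NOP58 (1.457), NUFIP1 (1.196), SHQ1 (1.096), ZNHIT6 (1.094), NAF1 (1.01), RUVBL1 (0.805), DKC1 (0.7935) and NOP56 (0.7931). GAR1 was at -0.79 with bafilomycin A1 in rich medium and at 0.80 in depleted medium, and NOP58 at -0.70 and 0.75. Among 19 decay targets TRA2A (1.088) and ATF3 (1.068) differed, ATF3 being at 0.51 in rich and 1.58 in depleted medium. Among 18 TOP translation regulators LARP4 (0.9914) and RPS6KB1 (0.8437) did. SNHG7, 1 of the 20 other snoRNA hosts tested, differed the other way (-1.309), at 1.08 in rich and -0.23 in depleted medium. None was called among 19 decay factors, 20 other listed TOP messengers or 79 ribosomal protein genes. All 14 kept their sign in the 20 alternative fits. Of the 14, 4 were called without bafilomycin A1 replicate 3 of the rich medium, 3 to 13 when any other single library was left out, and 0 by limma on the TPM scale.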

How the results depend on the processing

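The count of host genes called for bafilomycin A1 in rich medium, 3, was 6 with no low-count filter, 1 in a fit of only the 6 libraries compared, 0 without both libraries that stand apart, and 1 to 4 when single libraries were left out. For depletion under bafilomycin A1 it was 5, with 2 in the fit of 6 libraries and 0 to 6 on leaving out single libraries. For the interaction it was 0, with 1 by the DESeq2 test, 1 in the series-wide count table, 5 with no low-count filter and 0 to 3 on leaving out single libraries. The count for depletion under vehicle, 7, stayed at 6 to 8, and that for bafilomycin A1 in depleted medium at 0. Of 936 single-gene values under the alternatives, 831 kept their direction and side of the threshold, 50 lost a call, 33 gained one and 22 changed sign, none of these called in either fit.

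Without both libraries that stand apart, signs changed in rich medium for SNHG1 (-0.17) and SNHG12 (-0.68) and in the interaction for SNHG1 (0.30) and SNHG8 (0.18). On the TPM scale they changed in depleted medium for GAS5 (0.19) and SNHG6 (0.035) and in the interaction for SNHG16 (0.13). On leaving out single libraries the log2 fold changes that crossed 0 ran, for bafilomycin A1 in rich medium, from -0.00055 to 1.33 (SNHG1) and -0.37 to 0.37 (SNHG12). For bafilomycin A1 in depleted medium they ran from -0.27 to 0.097 (GAS5), -0.13 to 0.31 (SNHG1), -0.014 to 0.56 (SNHG5) and -0.0059 to 0.49 (SNHG8), for depletion under bafilomycin A1 from -0.012 to 0.31 (SNHG16), and for the interaction from -1.20 to 0.14 (SNHG1), -1.07 to 0.063 (SNHG8) and -0.021 to 0.72 (SNHG12).

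With the replicate number as a block the counts were 6 for bafilomycin A1 in rich medium, 8 for depletion under vehicle, 0 for bafilomycin A1 in depleted medium, 6 for depletion under bafilomycin A1 and 3 for the interaction, namely GAS5 (-1.62, adjusted p = 0.00166), SNHG5 (-1.49, adjusted p = 0.00977) and ZFAS1 (-1.19, adjusted p = 0.0121). Libraries with the same number correlated from -0.0812 to 0.294 in their deviations from the group means, over 0.1 in 6 of 18 pairs, and libraries with other numbers from -0.298 to 0.101, over 0.1 in 1 of 36. The 6 pairs were those numbered 2 and 3 among rich vehicle, depleted vehicle and depleted medium with bafilomycin A1 (0.209 to 0.294). Pairs numbered 1, and same-numbered pairs with rich medium under bafilomycin A1, stayed under 0.1. The labels do not say what a number marks, so the block was not taken as the design. Numbers 2 and 3 do hold some shared variation in those groups. The calls of the main fit, among them 0 in the interaction, rest on leaving the block out.

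The called genes among all tested numbered 1971 for bafilomycin A1 in rich medium and 192 to 2990 under the alternatives, 5577 (3274 to 6504) for depletion under vehicle, 2058 (623 to 4259) for bafilomycin A1 in depleted medium, 4352 (1650 to 6021) for depletion under bafilomycin A1 and 1116 (3 to 2093) for the interaction, the lowest in each case on the TPM scale. The causes were not tested. Counts of 33 to 97 reads in the shallow rich vehicle replicate 1 limit SNHG5, SNHG6, SNHG12 and SNHG15.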
